A study of Mus musculus with 2 samples.

Results

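The cells described are CD8 alpha beta T cells of the mouse colon lamina propria that carry genes of antigen-experienced cells. They were selected on measured RNA. A barcode was taken when it had at least 1 UMI of Cd8b1, the beta chain of the CD8 coreceptor, at least 1 UMI of the T cell receptor subunits Cd3e and Cd3g together, and none of Cd4, Trdc or Cd79a. Barcodes with 3 or more UMIs of the proliferation genes Mki67 and Top2a together were left out, as were those with at least 2 UMIs of Lef1 and at least 1 of Ccr7, genes of naive T cells. A UMI (unique molecular identifier) stands for 1 captured RNA molecule. The rule took 2099 cells of 24391 kept in all, 466 of 10012 in the CD163_NC library and 1633 of 14379 in the CD163_FL library.

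The study profiled CD45+ cells, that is, cells of blood origin, from the gut lamina propria with droplet single-cell RNA sequencing of transcript ends. Its title names wild-type mice and mice lacking CD163+ macrophages, cells marked by a scavenger receptor for haemoglobin complexes. There is 1 library per group. The labels tie neither library to a genotype and do not give the number, age or sex of the animals or the means of depletion. The libraries therefore keep their label names, every ratio compares 2 libraries and not 2 conditions, and no test between them was possible.

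CD8 alpha beta T cells recognise peptides on MHC class I molecules through their T cell receptor, with the CD8 alpha and beta chains as coreceptor. After activation they can release granzymes and perforin, secrete interferon gamma and chemokines, and change their homing receptors. In the gut many remain in the tissue as resident memory cells, held in the epithelium in part by the integrin CD103, encoded by Itgae, while others recirculate with the help of the sphingosine phosphate receptor S1pr1.

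Both libraries were deep enough for these cells to be described, but not equally so. Their median depth was 5640.5 UMIs and 2152 genes in CD163_NC and 7417 UMIs and 2591 genes in CD163_FL, with 1.47% and 2.62% mitochondrial UMIs. Because detection depends on depth, shares of cells with a UMI are given, unless all UMIs are named, after each cell was thinned to 2000 UMIs, which left out 13 and 10 of the selected cells. The 2 libraries shared 49 barcodes, and no selected barcode was selected in both. Scrublet called 5 of the selected cells doublets in CD163_NC (1.07%) and 48 in CD163_FL (2.94%). RNA of other cells was present in every selected cell: Igkc, an immunoglobulin light chain made by plasma cells, was found with all UMIs in 100% of the selected cells of both libraries, at 5913 and 2780 UMIs per 1000000 (CPM). All intervals below are 95% intervals for counting error only.

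The selected cells made up a larger share of the CD163_FL library. Of all kept cells, 4.65% were selected in CD163_NC (exact binomial interval 4.25 to 5.09). In CD163_FL the share was 11.4% (10.8 to 11.9), a ratio of 2.44 (2.21 to 2.70). Of T cells alone they were 14.4% of 3245 and 22.9% of 7127, a ratio of 1.60 (1.45 to 1.75). The intervals of the libraries did not overlap on either denominator. CD4 T cells, taken by the mirror rule, were 11.6% and 12.1% of kept cells, a ratio of 1.05 (0.979 to 1.13). Other CD8 groups had larger shares in CD163_FL too. The ratio was 2.04 (1.62 to 2.57) for CD8 T cells left out by Lef1 and Ccr7. It was 1.91 (1.56 to 2.35) for T cells with Cd8a and no Cd8b1 UMI, and 1.53 (1.48 to 1.58) for all T cells. A larger share was thus not particular to the selected cells. With the rule applied to thinned cells the selected cells were 3.48% and 7.93% of kept cells, a ratio of 2.28 (2.02 to 2.58). The size of the ratio depended on the rule: it was 1.52 when cells with any Lef1 UMI were left out, an alternative chosen after seeing the data, and 4.29 when cells with 2 or more UMIs of other cell types were. Only fractions within each library are known, so that more of these cells and fewer of the others cannot be told apart.

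**Figure D1:**
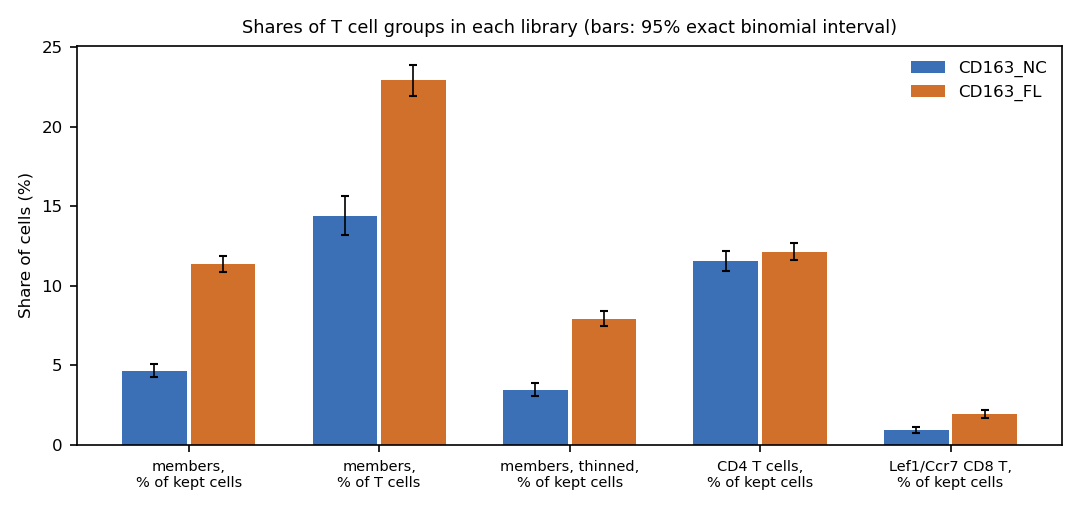
Share of cells (%) in each library for the selected CD8 T cells (members), for CD4 T cells and for the CD8 T cells left out by Lef1 and Ccr7 UMIs. Bars give the share and whiskers the exact binomial interval. The selected cells stand at 4.65% and 11.4% of kept cells, while CD4 T cells stand at 11.6% and 12.1%.

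The share rests on where the rule drew its lines, which were set on all UMIs of each cell. A single Cd8b1 UMI admitted 31.3% of the selected cells in CD163_NC and 26.4% in CD163_FL. B cells, which should lack Cd8b1, had a UMI of it in 0.260% of thinned cells of CD163_NC and 1.69% of CD163_FL, against 64.9% and 60.1% of the selected cells. The proliferation limit removed few cells in 1 library and many in the other. In CD163_NC 26 of the cells meeting all other terms had 3 or more UMIs of Mki67 and Top2a (5.28%, 3.48 to 7.65). CD163_FL had 405 such cells (19.9%, 18.2 to 21.7). Just inside that limit, 5.15% and 5.70% of the selected cells had 2 such UMIs, and just outside it 6 and 42 cells had exactly 3. The cells left out as cycling were deep, with medians of 15438 and 13774 UMIs. The Lef1 and Ccr7 term removed 95 and 278 cells.

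That last term left out different cells in the 2 libraries. In CD163_NC the 95 cells it left out had little effector RNA: Ccl5, a chemokine of effector T cells, stood at 852 CPM, the protease Gzmb at 54.3 CPM and Ifng, interferon gamma, at 24.9 CPM, against 8038, 1262 and 565 CPM in the selected cells. In CD163_FL the 278 cells left out carried Ccl5 at 3157 CPM, Gzmb at 809 CPM and Ifng at 90.1 CPM, against 5237, 1398 and 145 CPM in the selected cells. So the contrast with the left-out cells was steep in CD163_NC and shallow in CD163_FL. Dapl1, a gene of naive T cells, followed the opposite order, at 204 CPM in the left-out cells of CD163_NC and 12.5 CPM in those of CD163_FL. The left-out cells of CD163_FL were thus not low in these effector genes in the way those of CD163_NC were, and they are not called naive here.

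Lef1, a transcription factor of naive and memory T cells, was also common inside the selection. With all UMIs, and so at unequal depth, cells with at least 2 Lef1 UMIs and no Ccr7 were 17.4% of the selected cells in CD163_NC and 38.2% in CD163_FL. After thinning, a Lef1 UMI was found in 19.9% (16.3 to 23.8) and 32.8% (30.6 to 35.2). In CD163_NC the granule protease Gzma stood at 1152 CPM in selected cells without a Lef1 UMI, 631 CPM in those with 1 UMI and 311 CPM in those with 2 or more. In CD163_FL the same groups stood at 1217, 1012 and 1128 CPM. Gzmb gave 1460, 987 and 843 CPM in CD163_NC and 1456, 1275 and 1406 CPM in CD163_FL. In CPM both proteases were thus lower with more Lef1 UMIs in CD163_NC and nearly level in CD163_FL, a difference between the libraries that was not tested. With all UMIs, a Gzma UMI was found in 35.9%, 34.2% and 27.2% of these groups in CD163_NC. For Gzmb the shares were 77.5%, 73.4% and 63.0%, and the intervals of the groups overlapped for both genes. A single cell held 12.4% of the Gzma UMIs of the selected cells of CD163_NC, so its CPM rests in part on few cells.

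**Figure D2:**
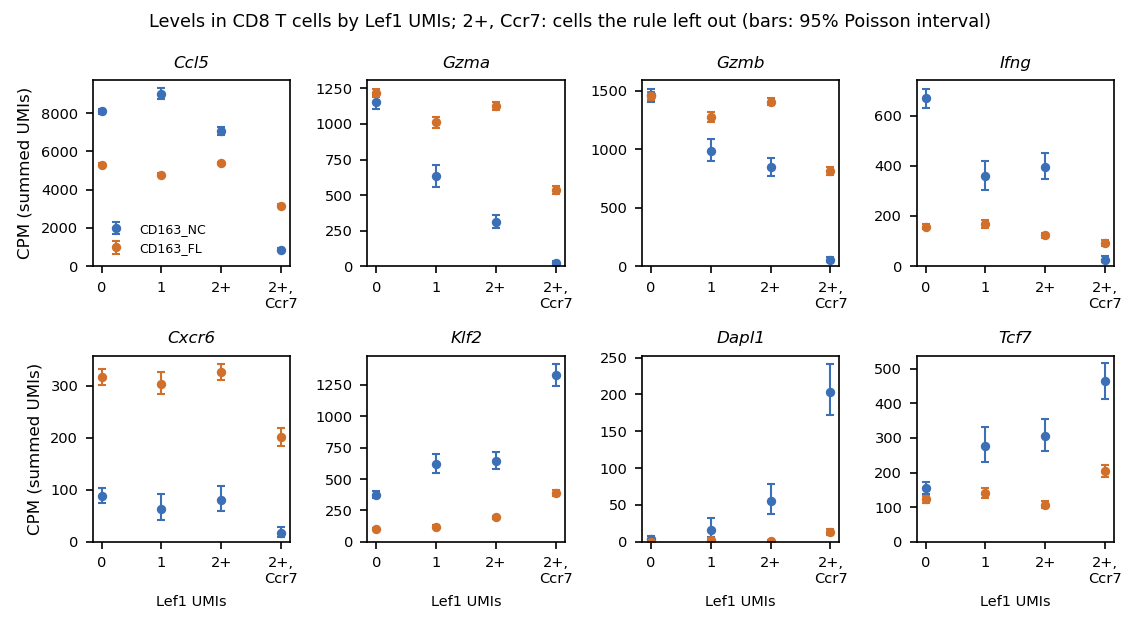
CPM of 8 genes in CD8 T cells split by their Lef1 UMIs, with the cells left out by the Lef1 and Ccr7 term in the last position; whiskers are exact Poisson intervals. Ccl5, Gzma, Gzmb and Cxcr6 are low in the left-out cells of CD163_NC and stay high in those of CD163_FL.

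The 5 genes that mark this population were present in both libraries. Cd8b1 and Cd8a, which encode the coreceptor chains and lie side by side on chromosome 6 (71322788 to 71337494 and 71373427 to 71379173, GRCm38), are part of the rule or follow from it. After thinning, a Ccl5 UMI was found in 88.7% of the selected cells of CD163_NC and 93.0% of CD163_FL, and one of Nkg7, a granule membrane protein, in 77.9% and 73.4%. Mctp2, a membrane protein with calcium-binding domains, was at 590 CPM in CD163_NC and 1274 CPM in CD163_FL, a log2 ratio (CD163_FL over CD163_NC, as throughout) of 1.11 (1.04 to 1.18). The same ratio was 0.98 in CD4 T cells. Of genes linked to antigen experience, thinned UMIs of Cd44 were found in 21.4% and 38.0% of cells, of the interleukin 15 receptor chain Il2rb in 51.2% and 59.5%, and of the chemokine receptor Cxcr3 in 11.3% and 15.0%. The label's marker genes were thus all detected, while Lef1 was frequent, and past contact with antigen was not measured.

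Other cell types' RNA was present and unequal. Markers of neutrophils, 7 genes, summed to 214 CPM in the selected cells of CD163_NC and 6.18 CPM in CD163_FL, with 458 and 8.55 CPM in CD4 T cells. Plasma cell markers summed to 11076 and 6329 CPM. The 8 epithelial markers summed to 438 and 105 CPM, of which 83.0% and 84.3% lay in 5 cells of each library. Macrophage and dendritic cell markers summed to 757 and 887 CPM, B cell markers to 482 and 633 CPM, and natural killer and innate lymphoid markers to 177 and 183 CPM. The macrophage list includes Itgax, at 48.7 and 78.2 CPM, and the natural killer list Eomes, at 61.0 and 40.1 CPM. Both genes lead over CD4 T cells below. These 2 sums are thus not RNA of other cell types alone. Of erythrocyte markers 4 of 5 were at 0 in CD163_NC (Hba-a1, Hba-a2, Hbb-bs and Alas2) and 2 of 5 in CD163_FL (Hba-a2 and Hbb-bt). Cd79a was at 0 by the rule, and Klra4 was at 0 in CD163_NC. The part of these genes in the differences below was not tested.

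Against CD4 T cells of the same library, the selected cells were high in killer cell genes and low in helper genes. Over 11792 measured genes (at least 20 UMIs in the 2 libraries together), 720 were at least 1.5-fold higher than in CD4 T cells in both libraries (6.11%) and 592 at least 1.5-fold lower (5.02%). The rule itself split the 2 groups by Cd4, Cd8a and Cd8b1, so these are descriptions. Of 17 cytotoxic granule and death ligand genes 9 were higher in both libraries and none was lower. Gzma was at 901 CPM in the selected cells and 27.5 CPM in CD4 T cells of CD163_NC, and at 1138 and 78.9 CPM in CD163_FL. Gzmk, a granzyme of memory-like CD8 T cells, was at 111 against 12.5 CPM and at 189 against 23 CPM. Both granzymes were far above their CD4 T cell level in each library.

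Of 12 natural killer receptors and adaptors 8 were higher than in CD4 T cells in both libraries and none was lower. Klrd1, which encodes CD94, was at 199 against 14.0 CPM in CD163_NC and at 183 against 30.7 CPM in CD163_FL. Among the 15 leading genes were also Eomes, a T-box factor of memory CD8 T cells (log2 ratio over CD4 T cells 5.24 and 3.81), Itgax, encoding the integrin CD11c (3.46 and 3.78), Cd160, a receptor of cytotoxic lymphocytes (3.32 and 3.33), Jaml, an adhesion molecule that binds an epithelial partner (3.05 and 3.28), and Cd7 (3.01 and 3.12). The others were Wdr95, Adgrg5, Lrrk1, Bend4 and Ly6c2. Several of these genes were not particular to the selected cells. Against T cells with Cd8a and no Cd8b1 UMI, Cd7 gave log2 ratios of -2.49 and -1.37, and Klrd1 -1.33 and -0.51. Cd160 gave -1.19 and 0.13, and Jaml -0.29 and 0.06. Itgax gave -0.05 and 0.56, and Eomes 1.23 and -0.13. Among the 10 lowest genes, Cd40lg, the helper ligand for CD40, gave -5.70 and -5.89, Tnfrsf4, encoding OX40, -4.73 and -5.31, and the transcription factor Maf -4.22 and -4.28. Tnfsf8, Gldc, Tnfsf11, Tshz2, Lgals7, Podnl1 and Plcl1 completed them.

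Between the libraries, CD163_FL had the higher level by 1.5-fold or more for 1820 of the 11792 genes (15.4%) and the lower level by as much for 2393 (20.3%). The exact interval of the ratio lay wholly beyond 1.5-fold for 488 and 826 genes. The median log2 ratio over all measured genes was 0.01. The counts of each gene list that follow stand against those background shares.

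The summed levels of the granule genes differed little as a group. Of 17 measured, 5 were at least 1.5-fold higher in CD163_FL and 2 lower, with a median log2 ratio of 0.08. Gzmb was at 1262 CPM in CD163_NC and 1398 CPM in CD163_FL, a log2 ratio of 0.15 (0.10 to 0.20). Prf1, perforin, was at 62.4 and 64.4 CPM, a log2 ratio of 0.05 (-0.19 to 0.29). Gzmb and perforin were thus close in the 2 libraries. The higher genes included 2 serpins, a family of protease inhibitors: Serpinb6b was at 121 and 377 CPM (1.64, 1.48 to 1.80), and Serpinb9 at 209 and 481 CPM (1.20, 1.08 to 1.32). These log2 ratios were 1.80 and 1.55 in CD4 T cells. Gzmk was higher (0.77, 0.60 to 0.94), and Gzmm, another granzyme, was lower, at 29.3 and 13.6 CPM (-1.10, -1.48 to -0.71).

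Interferon gamma, tumour necrosis factor and several chemokines were lower in CD163_FL, while other secreted factors were not. Ifng was at 565 CPM in CD163_NC and 145 CPM in CD163_FL, a log2 ratio of -1.96 (-2.06 to -1.87), and its thinned UMIs were found in 42.6% and 18.7% of cells. Tnf, tumour necrosis factor, was at 135 and 34.9 CPM, a log2 ratio of -1.95 (-2.15 to -1.75). The chemokines Ccl3, Ccl4 and Xcl1, which draw macrophages and dendritic cells, gave log2 ratios of -1.57, -1.67 and -1.35. All of these intervals lay beyond 1.5-fold. Ccl5 was at 8038 and 5237 CPM, a log2 ratio of -0.62 (-0.64 to -0.60). In CD4 T cells the log2 ratio was -0.59 for Ifng, -1.25 for Tnf, -0.33 for Ccl3, -0.72 for Ccl4, 0.04 for Xcl1 and 0.07 for Ccl5. The list of 16 measured secreted factors had 3 members higher and 7 lower, with a median of -0.19. The higher ones were Il17a, from 2 and 72 UMIs (2.94, 1.04 to 6.02), Areg, a growth factor (1.09, 0.60 to 1.62), and Il2, from 4 and 36 UMIs (0.94, -0.54 to 2.89). Ltb, Mif and Tgfb1 lay within 1.5-fold.

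The immediate early genes, which cells switch on within minutes of stimulation, were lower without exception. All 15 were at least 1.5-fold lower in CD163_FL, with a median log2 ratio of -2.11. Fos was at 485 and 70.4 CPM (-2.78, -2.91 to -2.66), Junb at 3453 and 799.6 CPM (-2.11, -2.15 to -2.07), and Nr4a1, a nuclear receptor that follows T cell receptor signals, at 805 and 143 CPM (-2.50, -2.59 to -2.41). In CD4 T cells the median of this list was -1.42. The related Nr4a2 and Nr4a3 gave -2.01 and -1.51. Of 10 heat shock genes none was higher and 2 were lower, Hspa1b and Dnajb1, with a median of -0.29. The immediate early genes were thus low in the library in which Ifng and Tnf were low, and a relation between them was not tested.

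Interferon response genes were lower too. Of 18 measured none was at least 1.5-fold higher and 11 were lower, with a median of -1.0 in the selected cells and -0.66 in CD4 T cells. Ifi27l2a was at 3185 and 575 CPM (-2.47, -2.51 to -2.43), Isg15, a ubiquitin-like modifier, at 297 and 97.5 CPM (-1.60, -1.73 to -1.48), and Ifit3 at 53.9 and 4.44 CPM (-3.60, -4.06 to -3.16). Gbp2, Gbp4 and Ifi47, interferon-inducible GTPases, were not among the lower genes and gave 0.57, 0.10 and -0.04. All 12 MHC class I presentation genes lay within 1.5-fold, with a median of -0.14, and B2m was at 3792 and 3405 CPM.

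**Figure D3:**
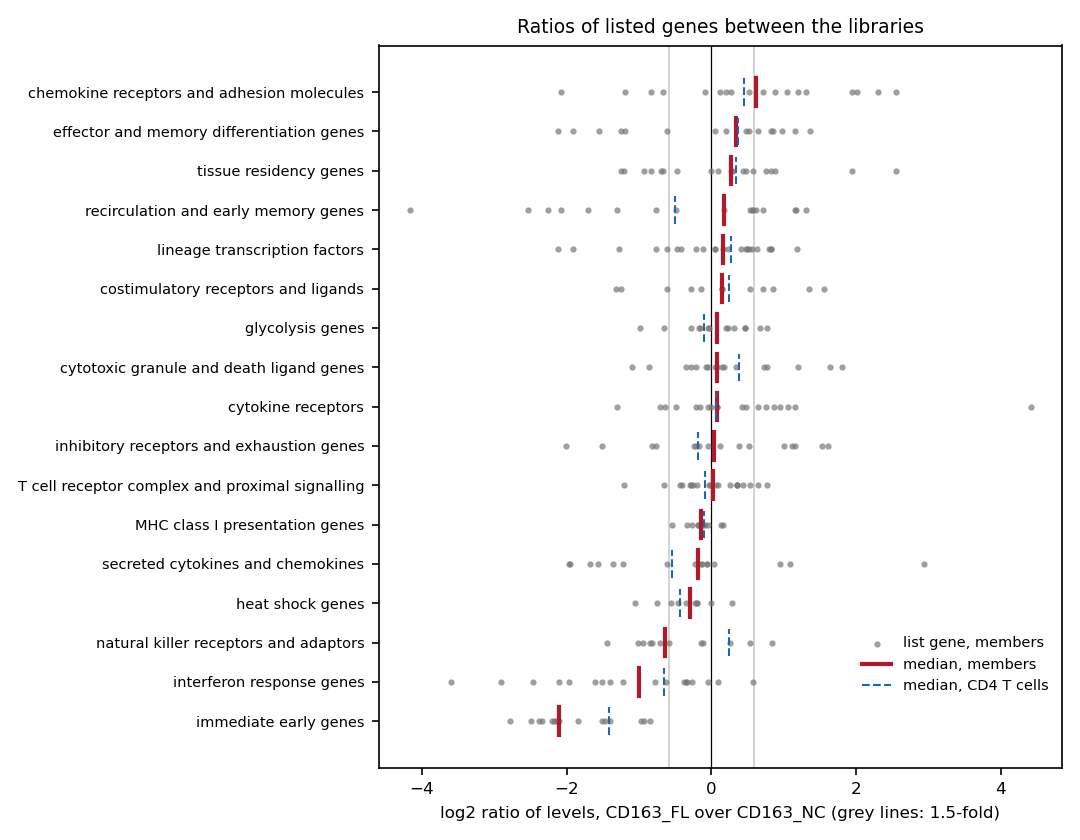
Log2 ratio of each listed gene between the libraries in the selected CD8 T cells (grey points), with the median of each list (red) and the median of the list in CD4 T cells (blue dashes). The medians of the immediate early and interferon response genes lie to the left in both cell groups. The median of the natural killer receptors lies left in the CD8 T cells and right in the CD4 T cells.

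Several chemokine receptors were higher in CD163_FL. Of 18 measured chemokine receptor and adhesion genes 9 were higher and 4 lower, with a median of 0.61 against 0.45 in CD4 T cells. The 9 include Ccr7 (0.71, 0.38 to 1.07), which the rule used, so its value is not a finding. The list median lies between Cxcr3 (0.51) and Ccr7, so it depends on that gene. That median ranged from 0.20 to 0.72 over the processing alternatives and lay within 1.5-fold in several of them, at 0.20 without cells holding 2 or more UMIs of other cell types. Cxcr6, a receptor of tissue T cells for Cxcl16, was at 82.5 and 318 CPM (1.94, 1.75 to 2.14). Ccr9, the receptor for the gut chemokine Ccl25, was at 8.11 and 47.4 CPM (2.55, 1.95 to 3.22). Ccr2 gave 1.20 and Cxcr4 1.05, and the integrin chain Itga4 gave 0.88. The ratios of Cxcr6 and Ccr9 were also high in CD4 T cells (2.07 and 1.61). Ccr9, Cxcr6 and Ccr2 lie close together on chromosome 9 (123678439 to 124113557), so they need not be separate observations. Of their neighbours, Sacm1l, Lztfl1 and Fyco1 gave 1.01, 1.27 and 0.63 in the selected cells. Limd1, Ccr1 and Ccr3 gave 0.18, 0.09 and -0.53. The part of this shared position in the ratios was not tested.

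Residency and recirculation genes differed in both directions. Itgae was at 50.4 and 31.7 CPM (-0.67, -0.95 to -0.39), Itga1, the alpha chain of a collagen-binding integrin, at 114 and 63.4 CPM (-0.84, -1.03 to -0.65), and Cd69, which holds T cells in tissue by opposing S1pr1, at 521 and 219.8 CPM (-1.25, -1.34 to -1.15). These 3 were lower in CD163_FL although Cxcr6 and Ccr9, of the same list, were higher. For Itgae the interval was not wholly beyond 1.5-fold, and the value ranged from -1.49 to -0.20 over the processing alternatives. The share of thinned cells with an Itgae UMI was nearly even, at 5.74% and 5.48%. Itga1 gave 0.40 in CD4 T cells. On the recirculation side, Klf2, a factor that drives S1pr1, was at 467 and 143 CPM (-1.71, -1.81 to -1.61). S1pr1 itself was higher, at 50.1 and 124 CPM (1.31, 1.07 to 1.57), as was Satb1, a chromatin organiser, at 563 and 1257 CPM (1.16, 1.09 to 1.23). The residency list had 5 members higher and 6 lower (median 0.27), and the recirculation list 5 and 7 (median 0.17). The 5 higher recirculation genes include Lef1 (0.62, 0.49 to 0.75) and Ccr7 (0.71, 0.38 to 1.07). The rule used both genes, so their values are not findings, and the count and median of that list depend on the rule.

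Among transcription factors, Tbx21, which encodes T-bet and drives interferon gamma in effector T cells, was at 239 and 55.2 CPM (-2.11, -2.27 to -1.96), and its ratio in CD4 T cells was -1.13. Id3, a memory-linked inhibitor of E proteins, was at 42.0 and 11.1 CPM (-1.91, -2.27 to -1.55). Both were low in CD163_FL with intervals far from 1.5-fold. Runx2 was at 376 and 855 CPM (1.19, 1.10 to 1.28), and Eomes at 61.0 and 40.1 CPM (-0.61, -0.86 to -0.35). The list of 23 factors was balanced, with 5 higher, 5 lower and a median of 0.17. Among effector and memory genes, Ly6c2 was at 1518 and 518 CPM (-1.55, -1.61 to -1.50), and Cd44 at 171 and 338 CPM (0.98, 0.84 to 1.12). That list of 16 had 6 higher, 6 lower and a median of 0.34.

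Receptors that restrain or costimulate T cells differed in both directions. Ctla4, an inhibitory receptor, was at 415 and 899 CPM (1.11, 1.03 to 1.20), against a ratio of 0.20 in CD4 T cells. Icos, a costimulatory receptor, was at 329 and 837 CPM (1.35, 1.25 to 1.45), and Tnfrsf9, encoding 4-1BB, at 55.4 and 163 CPM (1.56, 1.32 to 1.80). Havcr2, Pdcd1 and Tigit gave 1.53, 1.16 and 1.01. Lag3 was lower (-0.82), as were Cd244a (-0.76) and the transcription factors Nr4a2 and Nr4a3 of the same list, and Tox, the factor of exhausted T cells, was at 200.3 and 173 CPM (-0.21, -0.35 to -0.08). Of the 16 inhibitory and exhaustion genes 5 were higher and 4 lower (median 0.04), and of 12 costimulatory genes 4 and 3 (median 0.15), the lower ones being the ligands Cd40lg (-1.32, -2.65 to 0.13), Tnfsf14 (-1.24, -1.80 to -0.67) and Tnfsf11 (-0.62, -1.17 to -0.03). Among 19 cytokine receptors 7 were higher and 3 lower (median 0.08); Il18r1, the interleukin 18 receptor, gave 1.16 and Ifngr1 0.95, while Il7r gave -0.48. T cell receptor signalling genes were level, with 2 of 20 higher and 2 lower (median 0.02), and so were 14 glycolysis genes (2 and 2, median 0.08).

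The median of the natural killer receptor list had opposite signs in the selected CD8 T cells and in CD4 T cells. Of 12 measured in the selected cells 1 was at least 1.5-fold higher in CD163_FL, Klrb1c, from 5 and 42 UMIs, and 6 were lower, with a median of -0.64, whereas the median in CD4 T cells was 0.24. The 6 were Fcer1g (-1.44, -1.66 to -1.22), Hcst, a signalling adaptor (-0.71, -0.79 to -0.62), Klre1, at 17.6 and 8.74 CPM (-1.01, -1.50 to -0.50), Tyrobp, Klra7 and Crtam. Klrk1, encoding NKG2D, was at 125 and 83.7 CPM (-0.58, -0.75 to -0.40) and Klrc1, encoding NKG2A, at 269 and 389 CPM (0.53, 0.42 to 0.64), both within 1.5-fold. In CD4 T cells Klrk1 gave 0.69 and Klrc1 1.76, from lower levels. The interval lay wholly beyond 1.5-fold for 3 of the 6 lower genes. The median in the selected cells ranged from -0.71 to -0.44 over the processing alternatives, and so reached values within 1.5-fold. The difference between the 2 cell groups was not tested. Markers of natural killer and innate lymphoid cells had 6 of 8 members higher in CD163_FL and 2 lower, with a median of 0.85 against 0.82 in CD4 T cells.

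**Figure D4:**
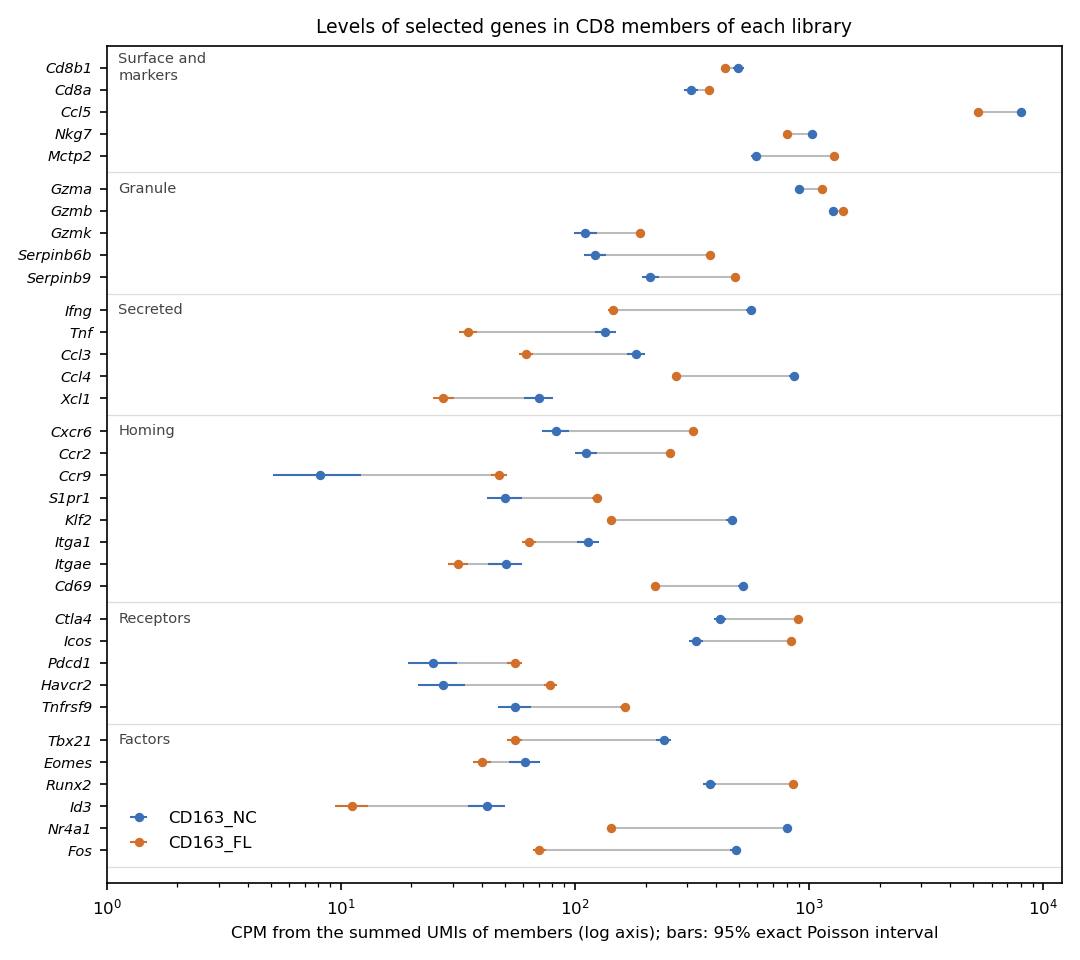
CPM of genes named in the text in the selected CD8 T cells of each library on a log axis, with exact Poisson intervals. Ifng, Tnf, Ccl3, Ccl4 and Xcl1, a choice from the secreted factors, are lower in CD163_FL, as are Tbx21, Nr4a1 and Fos. Cxcr6, Ccr9, Icos and Ctla4 are higher.

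The rule for the largest ratios mostly picked genes carried by a handful of cells. The 12 lowest in CD163_FL were Mcpt8 and Prss34, proteases of basophils, and Retnlb, Ang4, Agr2, Spink4, Fcgbp, Klk1, Muc2, Fxyd3, Clca1 and Tff3, many of them products of goblet and other epithelial cells. In CD163_NC 1 cell held 99.7% of the Mcpt8 UMIs and 99.1% of the Retnlb UMIs, and between 93.2% and 99.7% for all 12. On the CD163_NC side these ratios thus rest on 1 cell each, while in CD163_FL the few UMIs were spread for some genes, as for Muc2, with 35 UMIs in 34 cells. The 12 highest were Bcat1, Lhfpl2, Aqp4, Pde3a, Mmp10, Gipc2, Pde10a, C1qtnf12, Edil3, Zbtb32, Slc5a8 and Ankrd55. For Pde3a 1 cell held 89.4% of the UMIs in CD163_FL, whereas Bcat1 was spread over 66 cells and Ankrd55 over 174. In CD163_NC all 12 rest on few UMIs. Ankrd55 had the most, 9 UMIs (2.74, 1.79 to 3.88), and Bcat1 had 1 (4.66, 2.15 to 9.97). Edil3 had 0 and was put at 3 counts.

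The same ranking was repeated among genes found in at least 5% of thinned cells of the higher library, a limit chosen after the values were seen. It left 322 of 382 higher genes and 290 of 373 lower genes. Among the 12 highest were then Ccr9, Myb, Fam185a, Phlpp1, Nt5e, Galc, Ube2c, Ctla2b, Cxcr6, Chst12 and Tspan14. Myb, a transcription factor of stem-like CD8 T cells, was at 37.7 and 204 CPM (2.43, 2.15 to 2.72), while its ratio in CD4 T cells was 0.38. Myb was the exception: in CD4 T cells the ratios of the other genes just named lay between 0.73 (Galc) and 2.45 (Ctla2b). Nt5e, encoding CD73, which makes adenosine, was at 29.6 and 131 CPM (2.14, 1.83 to 2.48). The lowest were Ifit3, Ddx60, Ifit1, Fos, Slfn5, Nfkbid, Rtp4, Nr4a1, Rgcc, Ifi27l2a, Fosb and Ms4a4c. Ifit3, Ddx60, Ifit1, Slfn5, Rtp4 and Ifi27l2a are interferon-induced, and Fos, Fosb and Nr4a1 are immediate early genes. In CD4 T cells all 12 of these lowest genes were lower in CD163_FL too, with ratios from -4.05 (Ifit3) to -1.25 (Rgcc).

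States within the selected cells were set by detected genes, and 2 of them are described. With all UMIs, cells with an Itgae UMI were 11.6% of the selected cells in CD163_NC and 11.2% in CD163_FL, a ratio of 0.967 (0.727 to 1.29). Cells with Gzmk and no Itgae UMI were 32.6% and 54.7% with all UMIs, a ratio of 1.68 (1.46 to 1.92). After thinning they were 18.8% and 28.4%, a ratio of 1.51 (1.23 to 1.86). The interval of the Gzmk state lay away from 1 at both depths, while that of the Itgae state held 1.

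**Figure D5:**
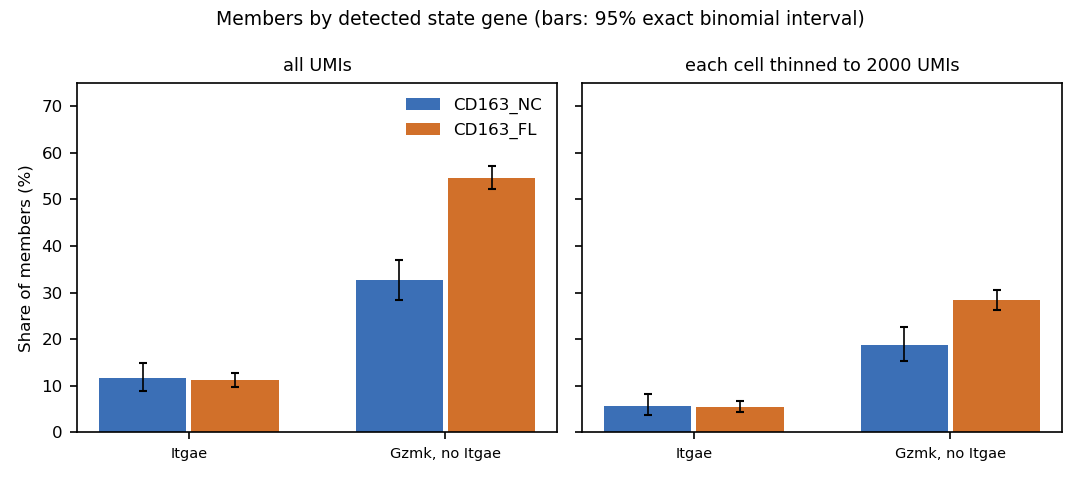
Share of the selected cells (%) in 2 states set by detected genes, with all UMIs (left) and after thinning to 2000 UMIs (right); whiskers are exact binomial intervals. The Gzmk state is larger in CD163_FL at both depths, and the Itgae state is close to even.

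The Itgae state carried genes that its definition did not use. Besides Itgae, its leading genes over the other selected cells were Chn2 (log2 ratio 3.0 in CD163_NC and 1.96 in CD163_FL), Asb2 (1.93 and 2.46), Atp8a2, Gcnt2, Actn2, P2rx7, Tnfsf10 and St8sia1. P2rx7, a receptor for extracellular ATP found on resident T cells, gave 2.05 and 1.58. Gzma was highest in this state, at 3068 CPM in CD163_NC (2.51 over the other cells) and 2510 CPM in CD163_FL (1.41). Itga1 gave 1.68 and 1.04, and Cd69 0.63 and 0.90. Ccr2 was low there, at 54.3 and 126 CPM, or -1.16 and -1.12 relative to the rest. Between the libraries, 6 of 8 measured macrophage and dendritic cell markers were higher in CD163_FL within this state and 1 was lower, with a median of 2.17. Over all 7656 genes measured in this state, 2030 were higher and 1095 lower, with a median of 0.15. The marker list includes Itgax, which was also high in the selected cells against CD4 T cells. The part of these markers in the values of the state was not tested.

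The Gzmk state was led by Esm1 (1.41 and 1.63), Osm, a cytokine (1.03 and 1.04), and Ccr2 (1.07 and 0.68). The next by rank were Mcm2, Daxx, Alg13 and Smim8, whose intervals in CD163_NC held 0, and Apoe (0.62, 0.07 to 1.17, and 0.56, 0.10 to 1.02), which macrophages also express. Eomes stood at 99.8 CPM in this state in CD163_NC (1.28 over the rest) and 45.3 CPM in CD163_FL (0.46). The lower immediate early genes of CD163_FL were seen in both states, with medians of -1.66 in the Itgae state and -2.12 in the Gzmk state.

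Pairs of genes were detected together at different rates in the 2 libraries. After thinning, Gzma and Gzmb were both found in 21.4% of the selected cells of CD163_NC (17.7 to 25.5) and 39.8% of CD163_FL (37.4 to 42.2), where the products of the genes' own shares were 15.7% and 33.4%. Gzmb and Ifng were both found in 28.9% (24.8 to 33.3) and 13.7% (12.1 to 15.5), with products of 26.3% and 13.1%. Gzmk and S1pr1 were found together in 2 of 453 cells, or 0.442%, and in 93 of 1623 cells, or 5.73%, which is close to the product of the 2 genes' own shares in CD163_FL (5.55%) and below it in CD163_NC (1.84%).

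T cell receptor segments were seen in part, since these libraries read transcript ends. With all UMIs, a Trbv UMI was found in 49 of 466 selected cells of CD163_NC (10.5%) and 258 of 1633 of CD163_FL (15.8%), and 46 and 241 of them could be assigned to 1 segment. Trbv12-2, on chromosome 6 (41118851 to 41119364), was the segment of 5 of the 46 assigned cells of CD163_NC (10.9%, 3.62 to 23.6) and of 80 of the 241 of CD163_FL (33.2%, 27.3 to 39.5). Trbv16 was that of 11 (23.9%, 12.6 to 38.8) and 40 (16.6%, 12.1 to 21.9). In CD4 T cells Trbv12-2 made up 16.6% of 175 and 23.4% of 218 assigned cells, and Trbv16 1.71% and 1.83%. Trbv16 thus stood out in CD8 against CD4 T cells of both libraries, while the Trbv12-2 intervals of the 2 libraries did not overlap in CD8 T cells. Detection differs between segments, so these are shares of the detected segments and not of the repertoire, and segments with near-identical copies are uncertain. With all UMIs, and so at unequal depth, both Trbc1 and Trbc2, the constant segments, were found in 50.9% and 63.6% of cells; a T cell uses 1 of them, and the files do not show how reads of these near-identical segments were split.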

How the data were processed

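The authors deposited counts of UMIs per gene and barcode, not normalized, written by Cell Ranger 7.1.0 per the file headers. The submitters' processing notes name mm10 and Seurat 4. The aligner and annotation are not stated in the sources used. Barcodes with at least 500 UMIs, 200 genes and at most 10% mitochondrial UMIs were kept, which left 10012 with 93274061 UMIs in CD163_NC and 14379 with 129246868 UMIs in CD163_FL. UMIs of the selected cells were summed per library (2836181 and 13278122) and scaled to CPM. Intervals are exact Poisson for levels, exact conditional binomial for ratios, Clopper-Pearson for shares and log-normal for ratios of shares, at 95%; a count of 0 was put at 3 counts over the group. With 1 library per group no test was made. CD4 T cells needed a Cd4 UMI, none of Cd8a, Cd8b1 or Trdc, and the other terms of the rule.

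The members and the 27 gene lists were chosen with earlier results of these data known. Named genes were the 12 largest and 12 smallest ratios with at least 50 UMIs in the higher library, an interval beyond 1.5-fold and a level at least 0.5 times that of all kept barcodes, leaving out mitochondrial, ribosomal, sex-linked and receptor genes and unnamed models; the 15 highest and 10 lowest against CD4 T cells; 4 per list by UMIs; and 8 per state. Other list members were named after their values were seen. Doublets were called with Scrublet in scanpy 1.11.5 and kept unless stated. Python 3.11.15, numpy 2.4.6 and scipy 1.17.1 were used, and the ratio and interval functions were tested on simulated data. Positions are from GENCODE mouse release 21 on GRCm38. Some genes, and 2 states set by them, are not reported here.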

Additional observations from a re-analysis of the deposited data

How the results depend on the processing

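With 1 library per group these limits come from counting and from the rule, and depth limits low genes and rare states. Relative to 2.44, the ratio of shares was 4.29 without cells holding 2 or more UMIs of other cell types (242 and 1490 cells left), and, in alternatives chosen after seeing the data, 1.52 without a Lef1 UMI and 2.79 with naive-like and cycling barcodes kept. The count of lower genes was 1033 at a minimum of 100 UMIs and 4726 with 1 UMI in each library; at a share of 5% of thinned cells, also added later, 764 genes were higher and 538 lower. Lists at or beyond 1.5-fold were 3 higher and 5 lower; with the rule on thinned cells they were 1 and 8, and with naive-like and cycling barcodes kept 5 were higher. The Gzmk ratio was 1.43 without Lef1 and 2.04 with naive-like and cycling barcodes kept, where the Itgae ratio was 0.703. A planned stricter exclusion of naive-like cells was left out.

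Among lists and genes past 1.5-fold, signs changed for the epithelial list (0.79) and Agr2 (0.52) with 2 Cd8b1 UMIs; for Tnfsf11 without Lef1 (0.86); for the CD4 helper list (-0.36), Areg (-0.14), Ccr7 (-0.77) and Il17a (-1.60) with the rule on thinned cells; for Ccr7 without cells holding other types' UMIs (-0.10) and with naive-like and cycling barcodes kept (-0.50); and for Slc5a8 when each cell weighed the same (-0.13). Of lists within 1.5-fold, the recirculation list (0.17) was at -0.77 and the innate-like list (0.50) at -0.27 with the rule on thinned cells, and the macrophage list (-0.10) at 0.69 at a minimum of 100 UMIs. Low genes within 1.5-fold changed sign too. The causes were not tested. Over all alternatives the immediate early median ranged from -2.23 to -1.88, the interferon median from -1.41 to -0.97, Ifng from -2.09 to -1.43 and Cxcr6 from 1.85 to 1.97. No paired analysis was possible because each group has 1 library.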

Other observations

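The cells left out as cycling carried the granule genes as well. Gzmb was at 1393 CPM in the 26 such cells of CD163_NC and 1853 CPM in the 405 of CD163_FL, and Gzmk at 207 and 213 CPM. T cells with Cd8a and no Cd8b1 UMI, 124 and 341 cells, had Gzma at 2144 CPM in CD163_NC and 1111 CPM in CD163_FL, against 901 and 1138 CPM in the selected cells, and Gzmk at 44.3 and 101 CPM.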
